A study of Mus musculus with 12 samples.

Results

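The genes described here encode proteins of the red cell surface, several of which carry blood group antigens in humans. They are Slc4a1 (band 3), Gypc (glycophorin C), Rhag, Rhd, Ermap, Kel, Xk, Icam4 and Aqp1, taken by gene symbol from the annotation of the array's probe sets. These 9 genes, of 18193 with a probe set of a single symbol, have 12 such probe sets of 34945. All samples were G1ME, a mouse line of bipotent megakaryocyte-erythroid progenitors that the labels call Gata1-negative, a label that all groups share. The cells were transduced with the retroviral vector MIGR1 carrying GATA1 together with green fluorescent protein (GFP), or with MIGR1 carrying GFP alone, and the cells with GFP were isolated by cell sorting. The groups were GATA1 at 42 h, vector at 42 h, GATA1 at 18 h and vector at 18 h after transduction, each with 3 arrays lettered A, B and C that the submitters describe as biological triplicates. The comparisons ask which of these surface genes differ between the GATA1 and vector labels, and by which of the 2 times. The sources used here do not say whether the line is a single clone or which cultures the letters stand for.

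Red cells carry a small set of very abundant membrane proteins that are put in place while the erythroblast matures. Band 3 exchanges chloride for bicarbonate and ties the membrane to the spectrin skeleton through ankyrin, and glycophorin C makes a further link through protein 4.1 and p55. The Rh proteins form a complex with the Rh-associated glycoprotein, which lets them reach the surface, and Kell is bonded to Xk. GATA1, a zinc finger factor that binds DNA at GATA words, is required for red cell and megakaryocyte maturation.

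All values are linear intensities as deposited, with array medians between 8.05 and 8.29, so a value near or below 10 lies at the bottom of the scale. Intensities depend on each probe set and are not set against those of another gene. Each change is the difference between 2 group means of log2(intensity + 16), written ± its SE, with adjusted p-values from limma over 10759 genes and all 12 arrays. With a pseudocount of 16 the change of a dim gene is understated.

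The single Gata1 probe set read 2044 ± 355 at 42 h and 2334 ± 91.0 at 18 h in cells labelled GATA1, against 3137 ± 116 and 3002 ± 284 in vector cells (SD, n = 3 each). This probe set was bright in a line called Gata1-negative, against the label. No source used here places it relative to the lost part of the gene or to the insert, so it checks nothing, and samples are named below by label as GATA1-labelled or vector-labelled. Of 9 tested erythroid marker genes, 7 were higher and 2 lower in GATA1-labelled cells at 42 h. The 2 lower were Car2 and Gata1 itself, by the probe set just described. Among the 7, Hba-x and Alas2 passed the filter on low values only through the GATA1-labelled arrays at 42 h, so they had to differ. Car1 lay below the array median on every vector-labelled array and passed only through GATA1-labelled arrays, so the filter favoured its rise. Over all genes tested 10.3% were higher and 10.6% lower at this time. Among markers of other lineages at 42 h, 7 of 11 tested megakaryocyte markers were higher and 1 lower. One of the 7, Vwf, likewise passed the filter only through GATA1-labelled arrays. Lower were 2 of 3 tested mast cell markers, Cpa3 and Kit, while Hdc did not pass. Of 8 tested myeloid markers 3 were lower and 1 was higher. For lymphoid markers 1 of 2 was lower, and for endothelial markers 1 of 5 was higher and 1 lower. With so few genes, the mast cell, lymphoid and endothelial counts are not read as shifts. The summed intensity of 12 megakaryocyte markers lay between 38559 and 48251 in GATA1-labelled and between 18420 and 19222 in vector-labelled cells at 42 h. That of 9 mast cell markers lay between 121 and 152 in GATA1-labelled and between 1993 and 3364 in vector-labelled cells, with 6 of the 9 at or below the array median on every array of either group. Summed over 13 myeloid markers, it lay between 462 and 561 in GATA1-labelled and between 2797 and 2960 in vector-labelled cells. Whether these marker differences bear on the genes below was not tested. In bulk samples a smaller share of cells of a type and less RNA per cell cannot be told apart. The array GATA1 42 h replicate A stood apart in its control probe sets, with a 3′ to 5′ log2 ratio for beta-actin of 0.80 against 0.38 to 0.55 on the other arrays.

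Most of the red cell surface genes were higher in GATA1-labelled cells at 42 h. Of the 9 genes, 8 passed the filter on low values, and of these 6 were higher (Slc4a1, Gypc, Rhag, Rhd, Ermap and Icam4), 0 were lower and 2, Kel and Xk, did not pass limma's test. Over all genes tested 20.9% were called at this time, 10.3% higher and 10.6% lower. At an unadjusted p below 0.05 limma gave 7 higher and 0 lower. The share of all genes at that looser threshold was not counted, so the percentages above are no background for it. This fit had no term for the replicate letter. With such a term, the replicate block, limma also called Kel higher (adjusted p = 0.0214) and Xk lower (adjusted p = 0.0348), with 28.4% of all genes called. The median difference of the 8 genes was 1.32, beside 0.001 for all genes tested. Ermap passed the filter only through the GATA1-labelled arrays at 42 h, where it was high, so it had to differ. The count and the median therefore describe the tested genes and are no evidence about all 9, which also holds for the counts over time below. Aqp1 did not pass the filter and has no test.

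**Figure D1:**
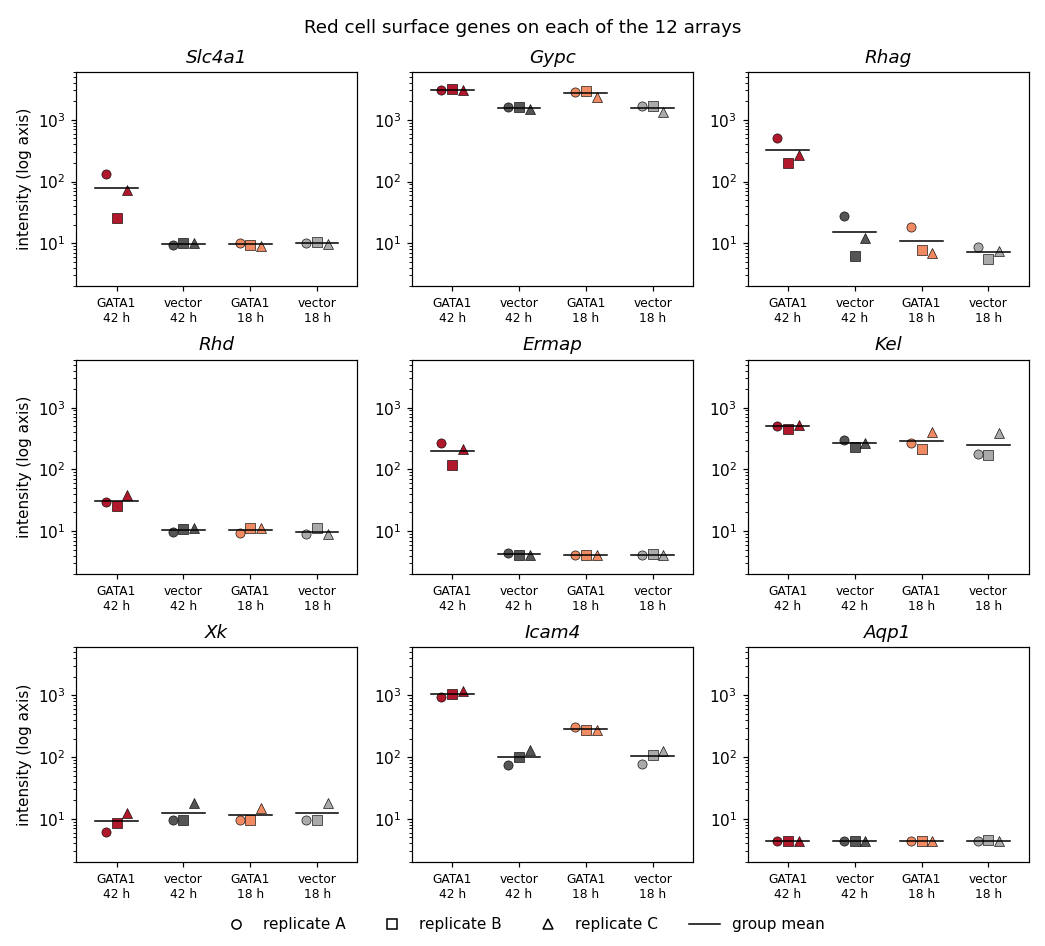
Intensity of the highest-mean probe set of each gene (y axis, log scale) on each array, grouped on the x axis as GATA1 and vector at 42 h and GATA1 and vector at 18 h, with marker shapes for replicates A, B and C and lines for group means (n = 3). Ermap, Rhag, Rhd and Slc4a1 leave the bottom of the scale on the GATA1 arrays at 42 h, Icam4 and Gypc are higher with GATA1 at both times, and Xk and Aqp1 stay low in every group. Rhag also lies above the bottom on replicate A of vector at 42 h and of GATA1 at 18 h.

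Slc4a1 encodes band 3, the anion exchanger. Its highest-mean probe set read 133, 25.7 and 73.9 on the GATA1-labelled arrays A, B and C at 42 h, against 9.40, 9.93 and 10.0 on the vector-labelled ones. At 18 h it read 10.0, 9.52 and 9.12 in GATA1-labelled cells and 9.96, 10.3 and 9.81 in vector-labelled cells. Thus the gene left the bottom of the scale only on the GATA1 arrays of the later time, and the 3 of them spread widely. The difference was 1.67 ± 0.35 at 42 h (adjusted p = 0.0078) and -0.03 ± 0.35 at 18 h (adjusted p = 0.9999). The 42 h value was 2.58 with a pseudocount of 1 and 0.87 with one of 64. The call ended with only the arrays compared (adjusted p = 0.0744), with array weights (1.01, adjusted p = 0.0551) and without the 4 arrays lettered A (adjusted p = 0.0660), over a range of 7.98e-05 to 0.0744 for all alternatives. Without GATA1 42 h replicate A alone it was 1.25 (adjusted p = 0.0090).

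Band 3 has 3 probe sets, and they did not read alike. The next one read 53.5, 14.7 and 29.1 in GATA1-labelled and 10.7, 10.7 and 10.2 in vector-labelled cells at 42 h, again without overlap and with array A highest. Fitted over 19636 probe sets, of which 15.8% were called at 42 h, it differed by 0.79 ± 0.23 (adjusted p = 0.0428). The probe set of lowest level stayed between 4.71 and 4.85 on every array and was not tested. The highest-mean one carries the suffix by which the manufacturer marks probes that may also match other sequences.

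Gypc encodes glycophorin C, which carries the Gerbich antigens in humans. It was expressed well above the bottom of the scale in every group, with 3089, 3122 and 3041 in GATA1-labelled cells at 42 h against 1592, 1612 and 1519 in vector-labelled cells. Already at 18 h it read 2862, 2885 and 2350 in GATA1-labelled cells, against 1701, 1696 and 1345 in vector-labelled cells. The groups did not overlap at either time, and the 2 vector groups overlapped each other. Gypc rose by 0.96 ± 0.10 at 42 h (adjusted p = 1.35e-04) and by 0.77 ± 0.10 at 18 h (adjusted p = 0.0047). The differences within letters A, B and C were 0.95, 0.95 and 0.99 at 42 h and 0.75, 0.76 and 0.80 at 18 h. The 18 h call ended with only the arrays compared (adjusted p = 0.106) and without the 4 arrays lettered A (adjusted p = 0.138), over a range of 0.0021 to 0.138.

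Rhag encodes the Rh-associated glycoprotein, a channel-like protein of the ammonium transporter family on which the Rh complex depends. It read 501, 199 and 274 in GATA1-labelled cells at 42 h, against 27.6, 6.27 and 12.1 in vector-labelled cells. At 18 h the values were 18.5, 7.75 and 6.89 in GATA1-labelled cells and 8.61, 5.65 and 7.43 in vector-labelled cells. All GATA1 arrays of the later time lay above every other array, while the groups overlapped at 18 h. The difference was 3.40 ± 0.33 at 42 h (adjusted p = 8.62e-05), a 10.6-fold change on the log2(intensity + 16) scale, and 0.20 ± 0.33 at 18 h (adjusted p = 0.9999). With a pseudocount of 1 the 42 h value was 4.44, and with one of 64 it was 2.23.

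Rhd encodes the Rh protein itself. It read 29.7, 25.3 and 37.7 in GATA1-labelled cells at 42 h, against 9.58, 10.8 and 11.0 in vector-labelled cells, 9.22, 11.0 and 11.1 in GATA1-labelled cells at 18 h and 8.91, 11.2 and 9.07 in vector-labelled cells at 18 h. Only the first of these groups stood clear of the bottom of the scale, and by a small margin. Rhd rose by 0.82 ± 0.09 at 42 h (adjusted p = 1.31e-04), and the difference at 18 h was 0.04 ± 0.09 (adjusted p = 0.9999). The 42 h value was 1.46 with a pseudocount of 1 and 0.35 with one of 64.

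Ermap encodes an erythroid membrane protein of the immunoglobulin superfamily that carries the Scianna antigens in humans. It read 269, 119 and 212 in GATA1-labelled cells at 42 h, against 4.44, 4.08 and 4.15 in vector-labelled cells. Its arrays at 18 h read between 4.12 and 4.14 in GATA1-labelled cells and between 4.15 and 4.17 in vector-labelled cells. Thus 9 of the 12 arrays gave an Ermap signal at the bottom of the scale. The 42 h difference was 3.35 ± 0.21 (adjusted p = 5.37e-06), a size that depends on the pseudocount: it was 5.19 with a pseudocount of 1 and 1.91 with one of 64. The 18 h difference was -0.002 ± 0.21 (adjusted p = 0.9999).

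Icam4 encodes an adhesion molecule of the immunoglobulin superfamily that binds integrins and carries the Landsteiner-Wiener antigens in humans. It read 948, 1060 and 1168 in GATA1-labelled cells at 42 h, against 74.8, 98.8 and 132 in vector-labelled cells. By 18 h it read 308, 276 and 280 in GATA1-labelled cells, against 77.5, 107 and 128 in vector-labelled cells. In order of level, GATA1 at 42 h lay above GATA1 at 18 h, and both lay above the 2 vector groups, whose arrays overlapped. Icam4 rose by 3.21 ± 0.19 at 42 h (adjusted p = 4.15e-06) and by 1.36 ± 0.19 at 18 h (adjusted p = 0.0072). The 18 h call ended with only the arrays compared (adjusted p = 0.0573) and without the 4 arrays lettered A (adjusted p = 0.0595), over a range of 0.0036 to 0.0595.

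**Figure D2:**
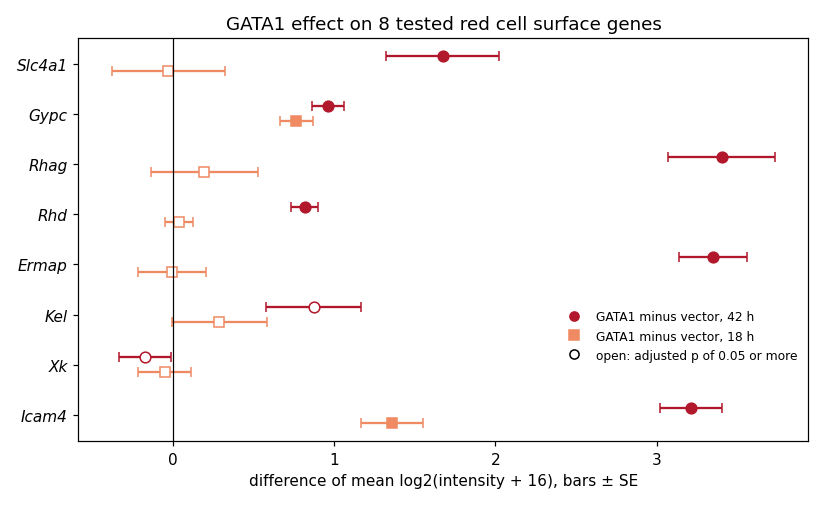
Difference of mean log2(intensity + 16) between GATA1 and vector arrays (x axis) at 42 h (circles) and 18 h (squares) for the 8 tested genes (rows), with bars of ± 1 SE and open markers for an adjusted p of 0.05 or more. Markers are filled at both times for Gypc and Icam4, at 42 h alone for Slc4a1, Rhag, Rhd and Ermap, and at neither time for Kel and Xk.

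Kel and Xk encode the proteins of the Kell complex, an endopeptidase of the cell surface and its multi-span partner. Kel read 511, 459 and 516 in GATA1-labelled cells at 42 h, against 297, 231 and 264 in vector-labelled cells, without overlap. At 18 h the values were 263, 211 and 401 in GATA1-labelled cells and 179, 170 and 383 in vector-labelled cells, so that replicate C was highest in both groups. The difference was 0.87 ± 0.30 at 42 h (adjusted p = 0.0673) and 0.29 ± 0.30 at 18 h (adjusted p = 0.9999). Within letters A, B and C it was 0.75, 0.94 and 0.93 at 42 h and 0.52, 0.29 and 0.07 at 18 h.

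The 42 h result for Kel lay near the threshold and changed with the fit. Kel passed with the replicate block (adjusted p = 0.0214, with 28.4% of all genes called), with only the arrays compared (adjusted p = 0.0057) and without vector 18 h replicate C (adjusted p = 0.0147), over a range of 0.0057 to 0.231.

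Xk lay near the bottom of the scale in every group. Its higher probe set read 6.23, 8.49 and 12.5 in GATA1-labelled cells at 42 h and 9.43, 9.49 and 18.3 in vector-labelled cells, and at 18 h 9.52, 9.44 and 15.1 in GATA1-labelled cells and 9.55, 9.67 and 18.2 in vector-labelled cells. Replicate C was highest in every group, and the groups overlapped at both times. The difference was -0.17 ± 0.16 at 42 h (adjusted p = 0.549) and -0.05 ± 0.16 at 18 h (adjusted p = 0.9999). With the replicate block Xk passed as lower at 42 h (adjusted p = 0.0348, over a range of 0.0348 to 0.964). The other probe set of Xk, between 7.71 and 9.64 in GATA1-labelled and between 9.37 and 12.2 in vector-labelled cells at 42 h, differed by -0.14 ± 0.06 (adjusted p = 0.151 over all probe sets).

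Aqp1 encodes the water channel that carries the Colton antigens in humans. Its probe set stayed between 4.36 and 4.47 on all 12 arrays, below the array median on each of them. These arrays give no measurable level of Aqp1 with this probe set, which does not show that the gene was silent.

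The rises at 42 h were partly shared in their order among replicates. On the GATA1-labelled arrays at 42 h, Slc4a1, Rhag and Ermap were each highest on A and lowest on B. Rhd and Icam4 were highest on C instead, and Gypc differed by less than 100 between its lowest and highest array. Array A is the one with the high 3′ to 5′ ratio, and whether this bears on its values was not tested. Without it Rhag differed by 3.05 (adjusted p = 1.78e-04), Ermap by 3.12 (adjusted p = 8.22e-06) and Icam4 by 3.29 (adjusted p = 2.53e-05), and the number of called genes of the 9 was 6 as before.

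At 18 h Gypc and Icam4 passed the test and the other genes did not. These were 2 of the 8 genes tested, both higher, while 1.85% of all genes were called, 1.11% higher and 0.744% lower. The median difference of the 8 genes was 0.12, beside -0.01 for all genes. The alternatives that end both calls are given with each gene above.

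The difference between the 42 h and 18 h effects was tested itself. It passed for Rhag (3.21 ± 0.47, adjusted p = 0.0050), Rhd (0.78 ± 0.12, adjusted p = 0.0066), Ermap (3.35 ± 0.30, adjusted p = 2.51e-04) and Icam4 (1.85 ± 0.27, adjusted p = 0.0050), 4 of 8 genes with Ermap among them, all with the larger effect at 42 h, against 4.66% of all genes called, 2.29% higher and 2.37% lower. For Slc4a1 it was 1.70 ± 0.50 (adjusted p = 0.104), and passed with a pseudocount of 1 (adjusted p = 0.0400) or without GATA1 42 h replicate B (2.19, adjusted p = 0.0015), over a range of 0.0015 to 0.298. For Gypc it was 0.20 ± 0.14 (adjusted p = 0.631), so no growth of its rise between the times was shown. The value for Rhd lost its call without the 4 arrays lettered A (adjusted p = 0.114, range 0.0025 to 0.114).

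Within GATA1-labelled cells, 5 of the 8 genes, again with Ermap, were higher at 42 h than at 18 h, beside 14.6% of all genes called, 6.72% higher and 7.91% lower. Rhag rose by 3.58 ± 0.33 (adjusted p = 1.35e-04), Ermap by 3.35 ± 0.21 (adjusted p = 1.15e-05), Icam4 by 1.82 ± 0.19 (adjusted p = 2.82e-04), Slc4a1 by 1.69 ± 0.35 (adjusted p = 0.0112) and Rhd by 0.82 ± 0.09 (adjusted p = 2.65e-04). The call of Slc4a1 ended with its second probe set (0.80, adjusted p = 0.0502), without the arrays lettered A (adjusted p = 0.0710) and with only the arrays compared (adjusted p = 0.0842). Kel differed by 0.78 ± 0.30 (adjusted p = 0.123) and passed without vector 18 h replicate C (adjusted p = 0.0332), over a range of 0.0332 to 0.380. In vector-labelled cells limma called 0 of the 8 genes between 42 h and 18 h, beside 0.0186% of all genes. At an unadjusted p below 0.05 the count of the 8 was also 0, and the share of all genes at that threshold was not counted. These time comparisons share their arrays with those of GATA1 against vector and are not independent of them.

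**Figure D3:**
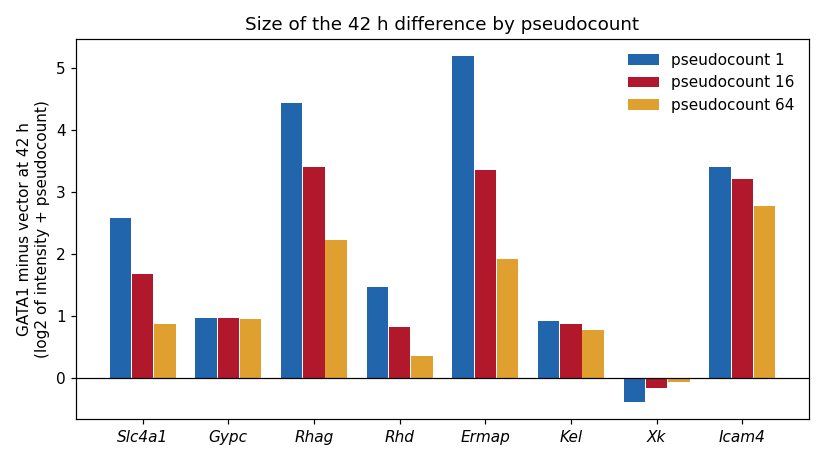
Difference between GATA1 and vector arrays at 42 h (y axis, log2 scale) for the 8 tested genes with pseudocounts of 1, 16 and 64 added to the intensity. The bars of Ermap run from 5.19 to 1.91 and those of Rhd from 1.46 to 0.35, while those of Gypc stay near 0.96.

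The sequences around the start sites are shown for genes called higher at 42 h, so that the letters to which GATA factors bind can be seen beside their values. RefSeq windows of 300 bases on GRCm38.p6, from 250 bases before to 50 bases after the start, were at hand for 7 of the 9 genes, and 4 of the 6 genes called higher are printed from 5′ to 3′ on the strand of the gene. Capitals mark the GATA words on either strand. The words searched were AGATAA and its variant form AGATAG, and likewise TGATAA and its variant form TGATAG.
Rhag, chr17:40810899-40811198, plus strand: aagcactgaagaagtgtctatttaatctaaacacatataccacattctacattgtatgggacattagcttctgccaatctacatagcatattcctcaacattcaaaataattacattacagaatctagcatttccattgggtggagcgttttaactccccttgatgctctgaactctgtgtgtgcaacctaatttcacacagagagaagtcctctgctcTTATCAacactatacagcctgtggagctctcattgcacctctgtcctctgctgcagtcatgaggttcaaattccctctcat
Rhd, chr4:134864286-134864585, plus strand: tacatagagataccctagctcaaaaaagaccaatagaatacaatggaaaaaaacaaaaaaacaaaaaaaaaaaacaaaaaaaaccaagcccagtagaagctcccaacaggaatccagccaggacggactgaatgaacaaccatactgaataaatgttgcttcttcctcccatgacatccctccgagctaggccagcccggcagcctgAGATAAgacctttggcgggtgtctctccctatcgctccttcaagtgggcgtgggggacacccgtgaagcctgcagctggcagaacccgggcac
Ermap, chr4:119189946-119190245, minus strand: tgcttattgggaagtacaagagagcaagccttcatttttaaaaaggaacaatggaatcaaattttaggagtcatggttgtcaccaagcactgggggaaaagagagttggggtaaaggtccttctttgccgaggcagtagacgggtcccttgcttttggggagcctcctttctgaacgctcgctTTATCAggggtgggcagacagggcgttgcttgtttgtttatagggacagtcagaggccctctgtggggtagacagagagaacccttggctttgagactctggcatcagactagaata
Icam4, chr9:21029182-21029481, plus strand: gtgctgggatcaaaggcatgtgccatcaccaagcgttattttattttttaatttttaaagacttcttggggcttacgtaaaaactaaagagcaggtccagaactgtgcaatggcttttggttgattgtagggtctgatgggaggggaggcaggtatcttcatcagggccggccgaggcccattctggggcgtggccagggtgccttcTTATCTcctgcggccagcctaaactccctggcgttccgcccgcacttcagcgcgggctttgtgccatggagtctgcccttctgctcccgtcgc

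Each of these windows held 1 GATA word. Its first base lay 31 bases before the start in Rhag, 43 in Rhd, 67 in Ermap and 43 in Icam4. The window of Kel held 2 GATA words, 56 and 19 bases before the start, and those of Xk and Aqp1 held 0. Thus 5 of the 7 windows held a GATA word, beside 29.8% of all 32851 windows of this length. In 7.77% of all windows there were 2 or more. The word CACCC, to which KLF1 and related factors bind, was found on either strand in all 7 windows, beside 57.5% of all windows, and both words in 5 of the 7, beside 14.9%. Before the start, CACCC began at 60 bases in Ermap, 53 in Icam4, 27 in Rhd, 5 in Kel and 112 in Rhag. A further CACCC of Rhd lay after the start. The spacing of both words was not counted over all windows, and no CACCC overlapped a GATA word in the 7 windows. These matches describe the letters of the windows, and binding was not measured here.

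Leaving out the 9 genes themselves and clone-type names, the genes with the most similar profiles were sought among 10226 tested genes by the root mean square difference of centred log2 values over the 12 arrays, where smaller is more alike. For Rhag these were Tspan33, a tetraspanin gene (0.30), and the adult beta globin gene Hbb-b2 (0.40), beside a median of 1.603 over all genes compared. The same genes were nearest to Ermap, with 0.20 and 0.24 and a median of 1.47, and Rhag and Ermap were 0.31 from each other, so that for Rhag Ermap was closer than Hbb-b2. Icam4 was nearest to Cdc42ep5 (0.26), a gene for a CDC42 effector, and F10 (0.28), which encodes coagulation factor X. Nearest to Slc4a1 were the cardiac troponin gene Tnni3 (0.22) and Tlcd4 (0.22), to Gypc Fam78a (0.12) and Rabgap1l (0.13), and to Rhd Larp1b (0.10) and Ubac1 (0.12). For genes with small changes such as Rhd a small distance is common, since the median over all genes was 0.39.

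Further blood group proteins, apart from the 9 genes, moved both ways. Beside the counts of this and the following lists, 10.3% of all genes tested were higher and 10.6% lower at 42 h, with a median of 0.001, and 1.11% were higher and 0.744% lower at 18 h. Of 21 tested, 8 were higher and 4 lower in GATA1-labelled cells at 42 h, with a median of 0.12. The largest rises were those of Abcb6, the porphyrin transporter that carries the Langereis antigen in humans (1014 ± 92.6 in GATA1-labelled against 215 ± 13.5 in vector-labelled cells, 2.16 ± 0.08, adjusted p = 2.26e-07), the nucleoside transporter Slc29a1 (67.4 ± 26.04 against 3.86 ± 0.02, 2.02 ± 0.18, adjusted p = 4.50e-05) and the urea transporter Slc14a1 of the Kidd group (1745 ± 120 against 532 ± 95.1, 1.70 ± 0.19, adjusted p = 2.02e-04). The vector-labelled arrays of Slc29a1 lay close to the lowest intensities. Slc29a1 passed the filter on low values only through the GATA1-labelled arrays at 42 h, so it had to differ. The count of 8 includes it and describes the tested genes. The largest falls were those of the prion protein gene Prnp (566 ± 106 against 1771 ± 246, -1.62 ± 0.18, adjusted p = 1.79e-04), the Duffy receptor gene Ackr1 (1170 ± 293 against 2109 ± 265, -0.86 ± 0.21, adjusted p = 0.0174) and Emp3 (-0.83 ± 0.08, adjusted p = 8.98e-05). At 18 h 3 of the 21 were higher and 1 lower.

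Of the enzymes that build carbohydrate blood group antigens, 4 of 13 could be tested. One of them, Gcnt2, the branching enzyme of the I antigen, fell by 4.70 ± 0.22 at 42 h, reading 36.1 ± 7.03 in GATA1-labelled against 1335 ± 62.5 in vector-labelled cells (adjusted p = 7.92e-07), and its 18 h difference was -1.86 ± 0.22 (adjusted p = 0.0031). The other 3 did not pass.

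Partners of band 3 and the Rh complex were higher in 6 and lower in 2 of 11 tested genes at 42 h, beside 10.3% and 10.6% of all genes, with a median of 0.56 beside 0.001. Add2, which encodes beta-adducin of the membrane skeleton, read 428 ± 102 in GATA1-labelled and 7.51 ± 0.29 in vector-labelled cells (4.22 ± 0.15, adjusted p = 1.55e-07). Add2 lay below the array median on every vector-labelled array. It passed the filter on low values only through GATA1-labelled arrays, so the filter favoured its difference. The count of 6 and the median include Add2 and describe the tested genes. Sptb, erythroid beta-spectrin, read 505 ± 147 in GATA1-labelled and 14.6 ± 0.70 in vector-labelled cells (4.05 ± 0.19, adjusted p = 7.92e-07), and Tmod1, a capper of actin filaments, read 1039 ± 79.0 in GATA1-labelled and 280 ± 50.3 in vector-labelled cells (1.84 ± 0.12, adjusted p = 8.24e-06). The 2 that fell were Car2, a carbonic anhydrase that works beside band 3 (-0.45 ± 0.07, adjusted p = 0.0012), and the tropomyosin gene Tpm3 (-0.29 ± 0.07, adjusted p = 0.0198). At 18 h 2 of the 11 were higher and 0 lower.

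Other red cell transporters were higher in 6 and lower in 0 of 16 tested genes at 42 h, with a median of 0.38, and higher in 1 of 16 at 18 h. The glutamine transporter gene Slc38a5 read 471 ± 58.2 in GATA1-labelled and 3.66 ± 0.01 in vector-labelled cells (4.62 ± 0.07, adjusted p = 7.69e-10), and Slc30a10 72.1 ± 20.4 in GATA1-labelled and 5.98 ± 0.09 in vector-labelled cells (1.98 ± 0.12, adjusted p = 5.32e-06), both from the bottom of the scale. Slc38a5 and Slc30a10 passed the filter on low values only through the GATA1-labelled arrays at 42 h, so they had to differ. The count of 6 includes them and describes the tested genes. Kcnn4, the calcium-activated potassium channel of red cells, read 83.8 ± 24.8 in GATA1-labelled and 14.7 ± 2.91 in vector-labelled cells (1.68 ± 0.16, adjusted p = 6.53e-05). Among erythroid receptors and adhesion genes, 5 of 11 were higher and 2 lower, with a median of 0.44. Tspan33 rose by 3.69 ± 0.22 (adjusted p = 3.66e-06), Epor, the erythropoietin receptor, by 3.51 ± 0.24 (adjusted p = 8.42e-06) and Cd9 by 1.09 ± 0.17 (adjusted p = 0.0017). The falls were Cd81 (-0.59 ± 0.04, adjusted p = 1.82e-05) and Treml2 (-0.36 ± 0.08, adjusted p = 0.0137). At 18 h 2 were higher and 1 lower.

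**Figure D4:**
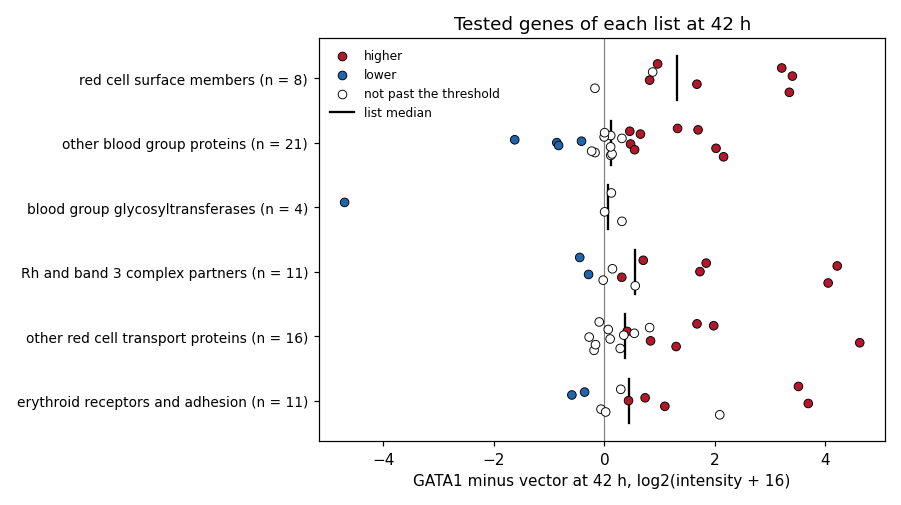
Difference between GATA1 and vector arrays at 42 h (x axis, log2(intensity + 16)) for the tested genes of each list (rows), coloured where the adjusted p was below 0.05, with a bar at each list's median. The 8 genes described here have a median of 1.32, and Gcnt2 at -4.70 stands apart among the glycosyltransferases.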

How the data were processed

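Expression was measured on 12 Affymetrix arrays, 3 in each of 4 groups taken from the sample titles. The authors deposited 1 linear intensity for each of 45101 probe sets and array. GCRMA and MAS5 are named in the submitters' processing notes, which do not say which of them gave these values, and the array medians are alike. No further normalization was applied, no detection calls were used, and the number of arrays limits the precision. The series text calls the triplicates biological, without naming separate cultures. The p-values therefore set each difference against the spread between these samples alone, and the main fit left out any pairing by letter.

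Probe sets were named from the platform annotation: 34945 have 1 symbol, of which 34741 matched RefSeq gene IDs, and 932 have several and were not used. Gene IDs required 0 symbol updates. A gene was represented by its probe set of highest mean and tested where this exceeded the array median on at least 3 of 12 arrays, which left 10759 of 18193 genes. limma 3.58.1 (R 4.3.3) was fitted to log2(intensity + 16) over all arrays, two-sided, with Benjamini-Hochberg adjustment over all genes tested and a threshold of 0.05, for 5 comparisons. The main fit had no replicate block, since the labels do not say what arrays of the same letter share. The procedure was run on simulated data with independent noise on each array. The correlation of same-letter arrays was not simulated, so error rates in its presence were not tested. The members and lists were chosen with earlier results of these data known.

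The 9 members and Gata1 are named, from each other list up to 3 genes rising and 3 falling most past the threshold at 42 h (or, with none, the 2 brightest tested), and for each called member the 2 genes nearest in profile, clone-type names left out. As a check of pairing, deviations from group means were correlated between arrays. Same-letter arrays gave 0.25 to 0.60 for GATA1 and vector at 42 h, 0.31 to 0.66 at 18 h and 0.36 to 0.54 for vector over time. The GATA1 groups over time gave 0.57 for A, 0.05 for B and 0.61 for C. Values above 0.1 were found in 16 of 18 same-letter pairs and 5 of 36 others. Vector 42 h B lay closer to GATA1 42 h C (0.39) than to GATA1 42 h B (0.25). Same-letter arrays were thus mostly more alike, but not in every comparison. Alternatives were other pseudocounts and filters, only the arrays compared, the replicate block, the second probe set, array weights, a variance trend with robust fitting, and leaving out each array or the arrays lettered A.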

Additional observations from a re-analysis of the deposited data

Results flagged for a closer look

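The GATA1 effect differed between 42 h and 18 h for 4 of the 8 tested genes by limma's interaction term, always with the larger effect at 42 h. Over all genes tested 4.66% were called, 2.29% higher and 2.37% lower. The 42 h effect minus the 18 h effect was 3.21 for Rhag (adjusted p = 0.0050), 0.78 for Rhd (0.0066), 3.35 for Ermap (2.51e-04) and 1.85 for Icam4 (0.0050), on the log2(intensity + 16) scale. Rhd and Ermap lay near the bottom of the scale in the other 3 groups. Rhag lay there too, except for 27.6 on vector 42 h replicate A and 18.5 on GATA1 18 h replicate A. Icam4 lay above it in every group. Ermap passed the filter on low values only through the arrays where it was high, so its value is a description. No outlier test was made, since groups of 3 arrays are too small for one.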

How the results depend on the processing

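The 6 members called higher at 42 h were also called under all alternatives run, with 2 exceptions. These were Slc4a1, whose call ended under the 3 settings given above, and Ermap, which was not tested under a stricter filter (above the array median on at least 6 arrays). The replicate block gave 8 members at 42 h, among them the 6 and with Xk lower, beside 28.4% of all genes called. It changed no other call of a member against vector than those of Kel and Xk, and over time in GATA1-labelled cells that of Kel (adjusted p = 0.0422). At 18 h the count of 2 members fell to 0 with only the arrays compared and to 0 without the 4 arrays lettered A, and stayed at 2 on leaving out any single array. In these cases fewer arrays entered the fit.

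Over all genes, the 18 h count of 199 was 119 with no filter, 54 with only the arrays compared, 114 with second probe sets, 358 with the replicate block and 34 without the arrays lettered A. Leaving out GATA1 18 h replicate A gave 101, GATA1 18 h replicate B 120, vector 18 h replicate A 117 and vector 18 h replicate B 116. The interaction count of 501 was 846 with the block, 319 with no filter, 315 with second probe sets, 259 without the arrays lettered A, and 323 without GATA1 18 h replicate B or C. The count over time in GATA1-labelled cells, 1574, was 2929 with array weights and 1021 with second probe sets, and that in vector-labelled cells, 2, lay between 0 and 41.

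Changes of sign occurred only among differences that were not called. Without the arrays lettered A the change over time in vector-labelled cells was -0.0034 for Ermap and -0.052 for Kel, and with array weights it was -0.0015 for Kel. On leaving out 1 array it lay between -0.11 and 0.059 for Gypc, -0.0033 and 0.0095 for Ermap, -0.15 and 0.13 for Xk and -0.21 and 0.14 for Icam4. For Xk the 18 h difference lay between -0.15 and 0.089 and the interaction between -0.26 and 0.021. Signal near the bottom of the scale limits the fold changes of Slc4a1, Rhag, Rhd, Ermap and Xk.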
